A study of Mus musculus with 10 samples.

Results

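Late probes are array probes whose signal in induced cardiomyocyte-like cells (iCM) stood high at day 18 and low at both earlier days. They were chosen by a rule on the authors' value table of intensities, in which empty cells and values under 25 were set to a floor of 25. In that table the median of each array, over the probes with a value, is 24.98 to 25, so a probe at the floor lay at or near its array's median or under it, which does not mean that it had no signal. A probe belonged when its day 18 intensity was at least 2 times its intensity at day 3 and at day 7, with GMT alone and again with GMT/miR-133. Of 23473 probes on the chip, 67 met the rule, 0.285%, and of the 7812 probes at 50 or more on both day 18 arrays, the lowest level at which the rule can be met, 0.858% did. The day 18 rise is therefore what chose these probes, and it is given as a description with no test. The files do not pair probe IDs with genes, so probes are named by ID, no pathway can be assigned, and the labelled cell types could not be checked against marker genes.

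Direct cardiac reprogramming turns fibroblasts toward a heart muscle-like state by forced expression of transcription factors, here the combination labelled GMT (Gata4, Mef2c and Tbx5). The fibroblast program has to be silenced while muscle genes are switched on, and muscle features usually go on maturing for weeks in culture. miR-133 is a microRNA abundant in heart and skeletal muscle, and Snai1 is a zinc finger repressor known for promoting epithelial-mesenchymal transition and a fibroblast state.

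The study held 10 arrays, 1 per sample. Mouse embryonic fibroblasts without treatment (MEF) and untreated mouse heart tissue were the controls. The iCM groups were MEF given GMT by pMx retrovirus, or GMT together with a transfected synthetic mimic of miR-133a, sorted at days 3, 7 and 18 for GFP driven by α-MHC, a promoter active in heart muscle cells. A pair of day 7 arrays came from a later round. The first of them repeats GMT/miR-133, although its description names GMT alone, and will be called the repeat day 7 array. The other received Snai1 in addition to GMT and miR-133. Every iCM sample was thus transduced and gated on the reporter, while MEF and heart were neither. Animal age and strain are not given in the labels. With 1 array per group, values carry no replicate error unless a test is named.

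The scanner files hold the spot intensities from which the value table was made. For days 3 and 7, each column of the value table matched the scanner file assigned to the other day, at a correlation of 0.99994 to 0.99996 across probes. The day names below are those of the value table, and the exchange leaves membership as it is, because the rule treats both early days alike. The file headers give 3 scan sessions. The arrays behind the day 7 columns were scanned with MEF, heart and day 18, those behind the day 3 columns in session 2, and the later round in session 3. Early day and scan session therefore cannot be separated. The 95th percentile of blank spots was 16 to 20 in session 1, 27 in session 2, and 48 and 51 in session 3, and the part of this background in values of the later arrays was not tested. All 67 probes exceeded the 95th percentile of blank spots on both day 18 arrays, by a factor of at least 5.58 with GMT and 5.39 with GMT/miR-133. Of all 23473 probes, 19563 exceeded it with GMT and 19717 with GMT/miR-133. The rule itself demands high day 18 values, so this is a description. The probes lay in 22 of 24 print blocks of the chip, with at most 5 in a block and 0 pairs on neighbouring spots.

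The group ran from faint to bright. Where a pair of values is given for a day, the first is GMT and the second GMT/miR-133. Day 18 intensities had a median of 183 with GMT (53.3 to 2456) and 156 with GMT/miR-133 (50.8 to 2379). Medians at day 3 were 25 in both arms, and at day 7 they were 32.9 with GMT and 41.3 with GMT/miR-133. The smallest of a probe's 4 rule ratios had a median of 2.66 and reached 62.3. At the threshold, M400011736 was just inside at 2.00, followed by M200006756 at 2.02 and M200001289 at 2.03. Just outside stood M300002557 at 1.99, and M200003841 and M400011042 at 1.98. M300002557 missed only with miR-133, where it went from 60.8 at day 3 and 58.3 by day 7 to 121 at day 18, while with GMT alone it went from 190 and 230 to 882.

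Late probes did not share a single profile against the controls. In MEF, 26 of 67 were at least 2-fold higher than in heart, 38.8%, compared with 8.98% of all probes and 20.2% of probes at 50 or more on both day 18 arrays. In heart, 13 exceeded MEF by 2-fold or more, 19.4%, compared with 5.49% and 9.61%. These are called MEF-side and heart-side below. The remaining 28 were within 2-fold. MEF and heart took no part in the rule, but each is a single array. At 4-fold, 18 were higher in MEF (background 2.44% and 5.01%) and 10 higher in heart (background 2.13% and 3.58%), so the shares of both kinds were above those of the chip.

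The steepest late rises were at probes far brighter in MEF than in heart. M400005459 read 9523 in MEF and 166 in heart. It was at the floor on the day 3 and day 7 arrays of both arms and on both later-round arrays, then read 2456 at day 18 with GMT and 1558 with GMT/miR-133. The day 18 signal was at least 62.3 times any first-round early value of its arm, and amounted to 25.8% and 16.4% of the MEF level.

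M400000367 followed the same course. It read 6671 in MEF, 147 in heart, 25 on all 6 day 3 and day 7 arrays of the study, and 1058 and 766 at day 18. Both day 18 arrays were far below MEF, at 15.9% and 11.5% of it.

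M400000340 differed from these in that its day 18 level was near that of MEF in the GMT arm. It read 639 in MEF and 60.5 in heart, was at the floor on the same 6 day 3 and day 7 arrays, and read 719 at day 18 with GMT and 324 with GMT/miR-133. These are 113% and 50.7% of MEF. In bulk RNA, a larger share of cells carrying a transcript and more of it per cell cannot be told apart, here or for any other late probe.

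Other probes of high rank were dimmer at day 18. M200004470 read 1827 in MEF and 74.7 in heart, 25 to 27.7 at days 3 and 7, and 250 and 156 at day 18. M200000131 read 1895 in MEF and 86.9 in heart, 25 at days 3 and 7, and 171 and 112 at day 18. Both stood at 5.89% to 13.7% of MEF on the day 18 arrays.

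M200009241 stayed above the floor throughout. It read 1928 in MEF and 693 in heart, 50.7 and 77.1 at day 3 with GMT and GMT/miR-133, 233 and 194 by day 7, and 1810 and 1194 at day 18. Its day 18 levels were 93.9% and 61.9% of MEF. Unlike M400005459, it was also clearly present on the later-round day 7 arrays, at 538 and, with Snai1, 799.

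The probes M400000771 and M300004263 stayed far below MEF at day 18. M400000771 read 1598 in MEF and 32.8 in heart, and M300004263 read 1030 in MEF and was at the floor in heart. Both were at the floor on all early arrays. At day 18 they read 120 and 93.5 with GMT, and 68.4 and 73.8 with GMT/miR-133. The lowest day 18 level relative to MEF was at M200001169, which read 8705 in MEF and 642 in heart. It read 25 to 51.9 on the early arrays, and 203 and 115 at day 18, 2.33% and 1.32% of MEF. Across the 26 MEF-side probes, the day 18 level was a median of 22.3% of MEF with GMT (2.33% to 187%) and 14.2% with GMT/miR-133 (1.32% to 85.4%).

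Other MEF-side probes were above the floor at every stage. M200000114, chosen after its values were seen, read 1703 in MEF, 252 in heart, 182 and 167 at day 3, 393 and 244 by day 7, and 1287 and 1069 at day 18. M400010899 and M400004210, chosen in the same way, read 1101 and 1222 in MEF. At day 18 they read 642 and 969 with GMT, and 592 and 560 with GMT/miR-133. All 3 were above the floor on all 10 arrays, whereas 13 MEF-side probes were at the floor on all 4 early arrays of the first round.

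Both day 18 arrays were at least 2-fold below MEF at 20 of 67 late probes, 29.9%, compared with 3.8% of all probes and 4.06% of probes at 50 or more at day 18. They were at least 2-fold above MEF at 32, 47.8%, compared with 3.3% and 9.91%. The day 18 arrays took part in the choice of the probes, which favours high day 18 values, so these shares describe where the late level lies and are no test. Relative to heart, both day 18 arrays were at least 2-fold above at 29 probes, 43.3%, compared with 7.57% and 22.8%, and at least 2-fold below at 8, 11.9%, compared with 4.77% and 5.54%.

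The late signal exceeded both controls at 19 probes. For these the mean log2 intensity of the day 18 arrays was at least 2-fold above MEF and above heart, 28.4% of late probes, compared with 6.22% of probes at 50 or more at day 18. Both controls were at the floor at 12 of the 19. No share of the chip was counted beside this, and the floor is close to each array's median, so nothing is read from the count. For these 12, the day 18 signal was measured in sorted cells, and MEF and heart tissue lay at or under the floor.

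M300009159 stood furthest above the controls. It was at the floor in MEF and heart, read 25 and 37.4 at day 3 with GMT and GMT/miR-133, 355 and 340 by day 7, and 792 and 828 at day 18. The day 18 mean was at least 32.4 times either control, and the arms were close at days 7 and 18.

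M400011193 read 39.9 in MEF and 34.7 in heart, 25 in both arms at day 3, 159 and 156 by day 7, and 1094 and 554 at day 18. Its arms were alike at day 7 and 1.98-fold apart at day 18, higher with GMT alone. M400011096 was at the floor in MEF, heart and at day 3, and read 169 and 61.3 by day 7 and 553 and 415 at day 18. On the repeat day 7 array, in contrast, M400011096 read 27.5.

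M400004411 and M200013731, both at the floor in MEF, heart and at day 3, had the highest rule ratios of this kind. M400004411 read 82.2 and 63.9 by day 7 and 596 and 295 at day 18. M200013731 read 32.1 and 25 by day 7 and 141 and 123 at day 18, and was at the floor on both later-round arrays. In the scanner files, heart exceeded MEF at M200013731 by 0.64 (log2) with normexp on blank spots and by 1.05 without background subtraction. Its smallest rule ratio (log2) was 1.47 and 1.77 in these settings, compared with 2.14 in the value table. Of the 19 probes above both controls, 5 were at the floor on all 4 early arrays and 7 were at least 2-fold higher at day 7 than at day 3 in both arms.

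A late signal also appeared at probes that both controls carry. M400004365, chosen after its values were seen, read 515 in MEF and 352 in heart. It read 77.5 and 179 at day 3, 529 and 509 by day 7, and 1832 and 1036 at day 18. Both day 18 arrays were at least 2-fold above MEF and heart. M400002872, also chosen afterwards, read 498 in MEF and 581 in heart, was at the floor on all 4 early arrays and on both later-round arrays, and read 84.7 and 56.9 at day 18, far below both controls.

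Among the 13 heart-side probes, the late level approached heart at some and stayed far below it at others. Day 18 intensities were a median of 48.0% of heart with GMT (1.38% to 233%) and 54.4% with GMT/miR-133 (2.85% to 196%). None of the 13 was at the floor on all 4 early arrays, whereas 13 of the 26 MEF-side probes were. Over the whole chip, 11987 of 23473 probes were, and this was not counted by control class. The early arrays also took part in the rule, so nothing is read from the contrast.

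M400004095 and M400011736 had the largest heart excess, at least 224-fold and 194-fold over MEF, where both were at the floor. In the scanner files both missed the 2-fold rule. Their smallest ratios (log2) were 0.82 and 0.57 with normexp on blank spots, and 0.99 and 0.72 without background subtraction. M400004095 read 5605 in heart, 25 in both arms at day 3, 33.5 and 78.2 by day 7, and 77.4 and 161 at day 18. M400011736 read 4856 in heart, 25 in both arms at day 3, 32.3 and 69.1 by day 7, and 68.4 and 138 at day 18. The day 18 signal was at most 2.87% of heart at either probe. Their profiles were nearly identical, with Pearson's r of 0.999 across the 10 arrays on the log2 scale and no array more than 1.16-fold apart, which is a description over arrays that share samples. Whether both report the same transcript cannot be told without gene names.

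M400014721 was at the floor in MEF and read 1002 in heart. It read 25 and 26.2 at day 3, 76.8 and 93.1 by day 7, and 227 and 327 at day 18, which is 22.7% and 32.7% of heart. M200007693, also at the floor in MEF and at 456 in heart, stayed at 25 to 26.4 through day 7 of the first round. It read 64.2 and 127 at day 18, but already 119 on the repeat day 7 array. The heart-side probe with the highest mean level on the day 18 arrays was M300001423, at 471 in MEF and 4369 in heart. It read 59.7 and 223 at day 3, 512 and 893 by day 7, and 1515 and 2379 at day 18, or 34.7% and 54.4% of heart.

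M200000369 gave the widest gap between the arms at day 18. It read 61.5 in MEF, 510 in heart, 25 in both arms at day 3, 83.1 and 56.8 by day 7, and 1187 with GMT but 159 with GMT/miR-133 at day 18, a 7.44-fold difference on single arrays. The GMT array alone exceeded heart, at 233% of it.

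M200003650 and M200016029, chosen after their values were seen, also exceeded heart at day 18. M200003650 read 237 in MEF, 561 in heart, 71.3 and 72.8 at day 3, 260 and 307 by day 7, and 836 and 838 at day 18. M200016029 read 28.3 in MEF, 390 in heart, 34.9 and 67.4 at day 3, 159 and 209 by day 7, and 510 and 556 at day 18. Each was higher at each later day in both arms, and the arms were close at day 18.

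M200015455 belonged to the few late probes that were bright throughout. The controls were within 2-fold, at 761 in MEF and 1370 in heart. It read 336 and 384 at day 3, 843 and 856 by day 7, and 1721 and 1754 at day 18. Its arms differed little at each day, and its day 18 level was 126% and 128% of heart.

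The contrast between the early days was not used by the rule and split the group. All 4 early arrays did take part in the rule, which favours low values on them, so the shares below are a description and no test. At 20 probes the signal was at the floor on all 4 early arrays and above it within the first round at day 18 alone. Of these, 13 were MEF-side, 7 were within 2-fold between the controls and 0 were heart-side. No share of the chip by control class was counted beside this, so it is a description. At 18 probes, 26.9% of the group, the day 7 columns were at least 2-fold above the day 3 columns in both arms, compared with 0.473% of all probes and 1.38% of probes at 50 or more at day 18. At 0 probes were they at least 2-fold below in both arms, compared with 0.379% and 0.448%. Of the 18 graded probes, 10 were within 2-fold between the controls, 5 heart-side and 3 MEF-side. At any size, 33 of 67 were higher at day 7 than day 3 in both arms (background 16.7% and 38.9%), and 4 were lower in both. For the lower direction no share of the chip was counted, so nothing is read from 33 against 4.

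All 18 then rose again by at least 2-fold to day 18, since the rule demands it. With the day names of the scanner files the early direction turns: the same 18 probes would then be highest at day 18, next at day 3 and lowest at day 7. The arrays behind the day 3 columns also differ from the other 4 in scan session, and the part of the session in this difference was not tested.

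The repeat day 7 array was not used by the rule and offers the same day from another round. At 22 late probes the day 3 and day 7 columns of the GMT/miR-133 arm were at least 2-fold apart. The repeat array was nearer to the day 7 column at 17 of them, 77.3%, and nearer to the day 3 column at 5. Among the other 484 probes that far apart it was nearer to the day 7 column at 64.5%, in equal measure where that column was higher, 64.6%, and where it was lower, 64.3%. M300009159, for example, read 217 on the repeat array, between 37.4 at day 3 and 340 by day 7, and M400011193 read 117, compared with 25 and 156.

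The day 18 arrays were also compared with these later arrays. Both day 18 arrays were at least 2-fold above the repeat day 7 array at 51 of 67 late probes, 76.1%, compared with 0.997% of all probes and 3.0% of probes at 50 or more at day 18. Against the Snai1 array they were so at 59, 88.1%, compared with 2.38% and 7.14%. The day 18 side of this comparison is the one that chose the probes, so only the later arrays are new to it. A late probe at the floor on a later array is exceeded 2-fold by the rule alone, since both day 18 values are at least 50. That was so at 28 of the 67 on the repeat day 7 array and at 36 on the Snai1 array. The 2 shares are therefore a description and no test. Of the 20 probes at the floor on all 4 early arrays, 19 (95.0%) were at the floor on the repeat day 7 array and, with Snai1, 18 (90.0%). Among all 11987 probes at the floor on those 4 arrays the shares were 98.5% and 98.6%, so this is what most such probes did. Of the 16 probes that were not 2-fold above the repeat day 7 array on both day 18 arrays, 8 were within 2-fold between the controls, 7 heart-side and 1 MEF-side. This split was not counted over the chip by control class, so nothing is read from it. M400004095 and M400011736 read 230 and 226 on the repeat day 7 array, above both day 18 arrays, and M300001423 read 1646, between the day 18 arrays.

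Adding Snai1 was compared on the later round's pair of arrays, both from session 3. Only a probe at 50 or more on the repeat day 7 array can be 2-fold lower above the floor, and 29 late probes were. Of these, 17 were at least 2-fold lower with Snai1, 58.6%, compared with 9.04% of the 8099 such probes on the chip. Heart-side probes made up much of this, with 8 of 9 lower, compared with 32.6% of heart-side probes on the chip, where "heart-side" again means at least 2-fold over MEF. Of the probes within 2-fold between the controls, 7 of 12 were lower (background 6.51%), and of MEF-side probes 2 of 8 (background 6.03%). Counted over all 67, 17 were lower (25.4%, background 3.12% of all probes and 8.03% of those at 50 or more at day 18), and 2 were at least as far above (2.99%, background 0.89% and 1.34%). Each side is a single array, so no test was made.

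The largest falls with Snai1 were at M300004830, from 138 to the floor, and at M400004095, from 230 to 41.6. M400005365 went from 169 to 31.2. M300004830 and M400005365 were at the floor in both controls and are among the probes above both controls at day 18, where they read 99.3 and 261 with GMT and 202 and 350 with GMT/miR-133. The largest increases were at M200001169, from the floor to 93.4, and at M200007693, from 119 to 273. M200000601 went from 73.3 to 140, short of 2-fold. M200000601 is a MEF-side probe, at 1134 in MEF and 369 in heart, that read 330 and 245 at day 18. M200007693 is heart-side and M200001169 MEF-side, so the increases were not of a single kind. Set against the first-round day 7 column of GMT/miR-133 in place of the repeat array, 13 late probes were at least 2-fold lower with Snai1, 19.4% (background 3.48% of all probes and 9.29% of those at 50 or more at day 18), and 4 were higher, 5.97% (background 1.4% and 2.12%). Set against the day 3 column, which matches the scanner file labelled day 7, 1 was lower, 1.49% (background 2.86% and 6.86%), and 5 were higher, 7.46% (background 0.954% and 1.86%). The 3 counts of lower probes, 17, 13 and 1, thus differed by the array set against Snai1. Both first-round columns took part in the rule, which favours low values on them. Over the late probes the GMT/miR-133 median was 41.3 at day 7 and 25, the floor, at day 3. A probe at the floor cannot be lower with Snai1, so the comparisons with these columns are no test. In the scanner files with normexp on blank spots, 11 were lower than on the repeat array.

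The rule used the same arrays, but not the contrast between the arms. The arm values of the late probes are therefore given as a description and support nothing on their own. At day 18, miR-133 was lower than GMT at 46 of 67 late probes, 68.7%, compared with 24.3% of all probes, many of which lie at the floor in both arms, and 55.1% of probes at 50 or more on both day 18 arrays. The median difference was −0.27 (log2), compared with −0.028 over the latter. The counts differed by control class. Of 26 MEF-side probes, 24 were lower with miR-133, 92.3%, with a median of −0.58 (log2), compared with 64.7% and −0.094 among MEF-side probes at 50 or more, and 2 were higher (background 35.3%). Of 13 heart-side probes, 10 were higher, 76.9%, with a median of 0.53, compared with 62.1% and 0.065, and 3 were lower (background 37.9%). Of the 28 within 2-fold, 19 were lower (background 54.6%) and 9 higher (background 45.4%), with a median of −0.20. At 2-fold or more, 7 were lower with miR-133, 10.4% (background 0.294% of all probes and 0.461% of those at 50 or more), and 4 were higher, 5.97% (background 0.0596% and 0.141%). The 4 higher were M200008409, from 60.5 to 146, M300004830, M400004095 and M400011736, the first of them named after its value was seen. In the normalized scanner values used for the arm test, these differed at day 18 by 0.98, 0.90, 0.84 and 0.92 (log2), short of 2-fold. Of the 7 lower, M200000369, M200002112 and M400000340 stayed past 2-fold there, at −2.69, −1.09 and −1.07 (log2), and the others did not. Each arm has 1 array at day 18, and the sign in both kinds is the one already seen over larger probe sets of these arrays, so it is no independent support.

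Over all days, a limma fit with a term for day beside that for arm was made on 19932 probes detected on at least 3 of the 6 first-round iCM arrays, which held all 67 late probes. With Benjamini-Hochberg adjustment, 0 of 67 passed an adjusted p of 0.05 (background 0.0%, 0 of 19932), and the smallest adjusted p among them was 0.203. At an unadjusted p under 0.05 there were 24, 35.8%, compared with 9.63% of tested probes, and nothing is read from this share because the same arrays chose the probes. Without background subtraction 3 passed the adjusted threshold, and with a trended and robust variance 7 did. The 3 days serve as replicates, so a p-value reflects the variation of the arm difference from day to day. Nothing in the labels says that the days are separate cultures.

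The 3 largest increases with miR-133 were at heart-side probes. M300001423 differed by 1.02 ± 0.17 (log2, SE; limma, adjusted p = 0.279) and was higher in 3 of 3 pairs. M400004095 differed by 0.63 ± 0.13 (limma, adjusted p = 0.355) and M400011736 by 0.59 ± 0.13 (limma, adjusted p = 0.358), each also higher in 3 of 3 pairs. None passed the test. With normexp on the local background the differences were 1.29 for M300001423, 0.03 for M400004095 and 0.37 for M400011736 (log2).

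The 3 largest decreases behaved differently from each other. M200000369 differed by −0.94 ± 0.58 (log2, SE; limma, adjusted p = 0.713), a mean that rested on day 18, with −2.69 there and −0.28 and 0.13 in the other pairs. M200002112 differed by −0.94 ± 0.080 (limma, adjusted p = 0.203) and M400004256 by −0.78 ± 0.095 (limma, adjusted p = 0.213), both lower in 3 of 3 pairs. With normexp on the local background M200002112 turned to 0.47 (log2; limma, adjusted p = 0.958). In the value table M200002112 read 888 in MEF, 269 in heart, and with GMT and GMT/miR-133 805 and 370 at day 3, 564 and 316 by day 7, 1659 and 758 at day 18. M400004256 read 521 in MEF, 195 in heart, 199 and 93.9 at day 3, 253 and 157 by day 7, 659 and 321 at day 18. At both, the GMT array was above the GMT/miR-133 array of the same day at every day.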

How the data were processed

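RNA from 10 mouse samples was hybridised to 1-colour Toray mouse chips with Cy5, per the labels. The deposited scanner files give median spot intensities with no normalization, per the file headers. The authors' deposited value table holds intensities on a linear scale, with column medians of 24.98 to 25 over the probes that have a value. Each column rose with its scanner file (days 3 and 7 exchanged), and the sources used here do not say how it was scaled. The rule, the levels and the counts past 2-fold used this table with a floor of 25. For the test between arms, spot intensities were corrected with normexp on the blank spots (limma 3.58.1, R 4.3.3, offset 50), quantile-normalized and log2-transformed. The model had arm and day as terms and 2 residual degrees of freedom. It was run on simulated data with equal spread at all probes and no differences between days. These settings differ from the arrays, so that run does not show how the model performs on them. The 3 probe groups compare heart with MEF at 2-fold. Backgrounds count all 23473 probes, and those able to meet the rule.

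Late probes, sets and tests were chosen with earlier results of these data known. Probes were named by rank: 8 by smallest rule ratio, 4 by day 18 level, 4 each by heart and MEF excess, 3 above both controls, 3 each way by arm and by Snai1 difference, and 3 on each side of the threshold, 31 different probes in all. Others are marked where named. Gene and marker lists written down for this work could not be used, because 0 probe IDs matched a gene symbol in the reference table. Alternatives changed the floor, the fold, the background correction, the normalization, the detection filter, the variance model and the arrays used. Precision is limited by there being 1 array per group.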

Additional observations from a re-analysis of the deposited data

How the results depend on the processing

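The arms were paired by day in the test, and there are no replicate numbers in the labels to pair by. The number of late probes depended on the settings of the rule: 37 with a floor of 50, 23 with a floor of 100, 156 at 1.5 times and 22 at 3 times. Applied to the scanner files with normexp on blank spots the rule gave 46 probes, 45 of them shared with the 67, and without background subtraction 76, of which 58 were shared. M400004095 and M400011736 were in neither set. In the test between arms, 3 late probes passed an adjusted p of 0.05 without background subtraction while a robust, trended eBayes step passed 7, and 0 passed under the other 8 alternatives, each day left out included. M200002112 turned to 0.47 (log2) with normexp on the local background (limma, adjusted p = 0.958). M400004095 dropped to 0.03 (log2; limma, adjusted p = 0.997) in that setting. The cause was not tested for either. M200002112 and M400004256 were among the late probes that passed under both of the former 2 settings, M300001423 and M400004095 under the variance model alone. With Snai1, late probes at least 2-fold lower numbered 17, and 11 with the scanner files. Those at least 2-fold higher numbered 2, and 4 against the first-round day 7 column. Set against the day 3 column of GMT/miR-133, an alternative chosen after seeing the data, 1 was lower and 5 higher. Both first-round columns took part in the rule, which favours low values on them. On each day 18 array alone, also chosen after seeing the data, the counts against the controls and the later arrays moved by less than 1.5 times.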

Other observations

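Some probes that were bright in MEF were at the floor on the early iCM arrays, and a part of them were above it at day 18. On the chip, 31 probes read 400 or more in MEF and were at the floor on all 4 early arrays. Of these, 12 are late probes, 10 others were above the floor on at least 1 day 18 array, and 9 were at the floor on both. All 31 were at the floor on the repeat day 7 array, and 29 on the Snai1 array, compared with 98.5% and 98.6% of all probes at the floor on the 4 early arrays. At the 22 with day 18 signal above the floor, the GMT array read higher than or equal to the GMT/miR-133 array at all 22. Of MEF-side probes at 50 or more on both day 18 arrays, 64.7% were lower with miR-133. The 22 include the 12 late probes, whose arm values were already counted. They also include probes above the floor with GMT alone, such as M400001027 at 75.9 and 25, so the count is no test.

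The following were chosen after their values were seen. M200005191 and M200005788, at 2104 and 1108 in MEF, were at the floor on both day 18 arrays, which puts them at or under 1.19% and 2.26% of MEF. M200002189, at 2225 in MEF, read 41.2 and 25.3 at day 18. By comparison, M200000131 and M200000979, at 1895 and 1483 in MEF, were at 9.02% and 8.62% of MEF with GMT and at 5.89% and 5.81% with GMT/miR-133. M400000340 stood apart at 113% and 50.7%. No test was made of these values.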
